A study of Mus musculus with 2 samples.

Results

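The genes described here are the interferon-inducible and interferon regulatory genes of the mouse, read in cell populations sorted from dorsal skin. They were chosen by name, from every non-control probe whose symbol on the array begins with Ifi, Ifit, Ifitm, Irf, Oas, Gbp, Stat or Isg and a number (or Oasl), or is Ifih1, Mx1, Mx2, Igtp, or an Ifnar, Ifngr, Irgm or Iigp gene. The names picked 102 of 41174 probes, for 69 genes. Of these 69 genes, 21 gave a signal that could be compared, among 6196 measured genes in all. The naming rule itself uses symbols alone.

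Cells with a bright green fluorescent reporter were sorted from the skin of knock-in mice, in which EGFP-ires-CreERT2 is driven by the Lgr5 promoter (Lgr5-high cells) or by the Lgr6 promoter (Lgr6-high cells). Lgr5 and Lgr6 encode R-spondin receptors and mark stem cell populations of the hair follicle. No treatment is named, both populations carry the same cassette, and age, sex and strain are not given in the sources used here. Cells of 3 mice were combined per sort, and both RNAs were hybridised together on 2 Agilent arrays with the dyes swapped: the Lgr6-high RNA was labelled with Cy5 on array 1 and with Cy3 on array 2. Nothing states that these came from separate RNA pools, so they count as 1 replicate, and an SD below is the spread of the 2 hybridisations, which may be technical. Each population came from its own knock-in line, so that line and population cannot be told apart.

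Interferons are secreted proteins that put cells into an antiviral state. Type I interferons bind the receptor chains Ifnar1 and Ifnar2 and act through Stat factors and Irf9, which together bind the interferon-stimulated response element (ISRE) in the promoters of genes such as Isg15, Ifit1, Mx1 and Oas1a. Interferon gamma binds Ifngr1 and Ifngr2 and acts through Stat dimers, which bind the gamma-activated site (GAS) in promoters such as that of Irf1. Symbols alone do not fix function: Stat6 serves interleukins, and Ifi30 is a lysosomal thiol reductase of antigen processing.

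A gene counted as measured when a probe of it was well above background, by the scanner software's own mark, for at least 1 population on both arrays. Ratios are log2 of Lgr6-high over Lgr5-high, given as mean ± SD over the arrays, and a positive value means more signal from Lgr6-high cells. A gene is called higher in one population when its mean ratio is at least 1 (2-fold) and at least 0.5 on each array. With 1 replicate there is no test of the populations. Across all measured genes 451 (7.28%) were called toward Lgr6-high cells and 295 (4.76%) toward Lgr5-high cells. That split was 212 and 204 without background subtraction, 124 and 151 with the background model fitted on all spots, 134 and 57 with median centring in place of loess, and 958 and 959 with the scanner's own ratios. The scanner mark was met by 31.6% (array 1) and 33.3% (array 2) of probe spots in Cy3 but by 15.3% and 16.2% in Cy5, so a dim gene was more often seen in the population that carried Cy3. Of the reporter genes, Lgr5 was lower in the Lgr6-high cells (-1.83 ± 0.12), while no Lgr6 probe was bright enough to enter.

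Of the 21 measured interferon genes 8 were called higher in Lgr6-high cells and 0 in Lgr5-high cells, against the 7.28% and 4.76% of all measured genes. Of the 8, 7 are described: Ifi202b, Oas1f, Ifngr1, Ifitm3, Ifitm7, Irf1 and Ifi204. Their ratios ran from 1.08 to 4.76. The rest lay between -0.93 and 0.57, and the Ifi27-like genes Ifi27l2a and AK010014 stood lowest, just short of 2-fold toward Lgr5-high cells. The median of the 21 was 0.47, beside -0.05 for all measured genes. Of the 21, 7 entered through the Lgr6-high signal alone and 1 through the Lgr5-high signal alone, so the count and the median describe only those genes bright enough to be seen. Over all 69 genes with the brightest probe and no filter the median was 0.09, beside -0.0036 for all genes in that setting. In pooled RNA, more cells with a transcript and more transcript per cell cannot be told apart.

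**Figure D1:**
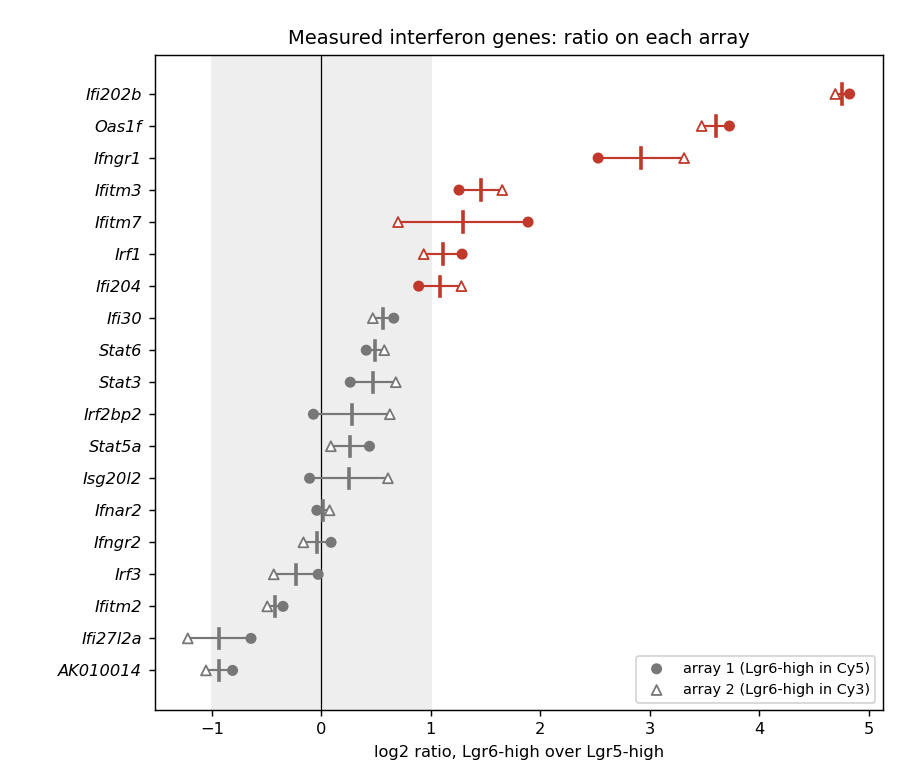
Log2 ratio of Lgr6-high over Lgr5-high (horizontal axis) for 19 of the 21 measured interferon genes, with array 1 as filled circles, array 2 as open triangles and the mean as a vertical bar; red genes were called higher in Lgr6-high cells and the grey band spans -1 to 1. The 7 called genes shown lie to the right on both arrays, from Ifi204 at 1.08 to Ifi202b at 4.76.

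**Figure D2:**
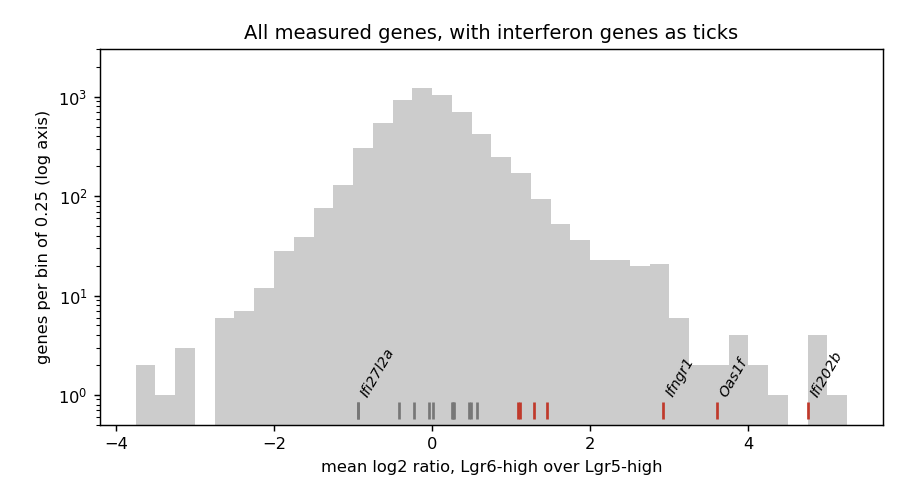
Number of measured genes per bin of 0.25 in mean log2 ratio (log vertical axis) for all 6196 genes in grey, with 19 of the 21 measured interferon genes as ticks at the foot, red where called higher in Lgr6-high cells. The ticks reach from -0.93 to 4.76, and Ifi202b, Oas1f and Ifngr1 lie in the thin right tail.

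As an alternative rule, limma was fitted to the arrays over all 6196 genes, with a Benjamini-Hochberg adjusted p under 0.05 and the same 2-fold minimum. It called 7.39% of all genes toward Lgr6-high cells and 4.87% toward the Lgr5-high side. Among the interferon genes it called the same 8 and no gene toward Lgr5-high cells. Both rules rest on the hybridisations of 1 replicate, and only limma uses the spread between them.

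Many of the best-known interferon targets were too dim to read. Of the 69 genes 30.4% were measured, beside 22.3% of all 27730 genes on the array. The other 48 were not measured, and 30 of these were never above background, in either population or on either array. That set held Ifit1, Ifit2, Ifit3, Mx1, Mx2, Oas1a, Oas2, Oas3, Oasl1, Oasl2 and Ifi44, all effectors of the antiviral state, and the guanylate-binding proteins Gbp2b, Gbp3, Gbp4, Gbp5 and Gbp7. The other 18 passed background on 1 array in at least 1 population, among them Isg15, Irf7, Irf9, Stat2, Igtp, Irgm1, Ifih1 and Ifnar1. The brightest probes of the 48 had ratios between -0.21 for Stat2 and 0.43 for the exonuclease gene Isg20. Values so near background do not show that these genes were equal in the populations.

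Roles were set by symbol, so that Isg20l2 counts with the antiviral effectors and sensors. By role, none of 10 GTPases was measured. Among the antiviral effectors and sensors 2 of 21 were measured, among the interferon regulatory factors 3 of 9, among the Ifitm proteins 3 of 6, among the receptor chains 3 of 4 and among the Stat factors 4 of 7. Of the remaining Ifi genes 5 of 10 were measured, and of the IRF2 binding proteins 1 of 2.

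**Figure D3:**
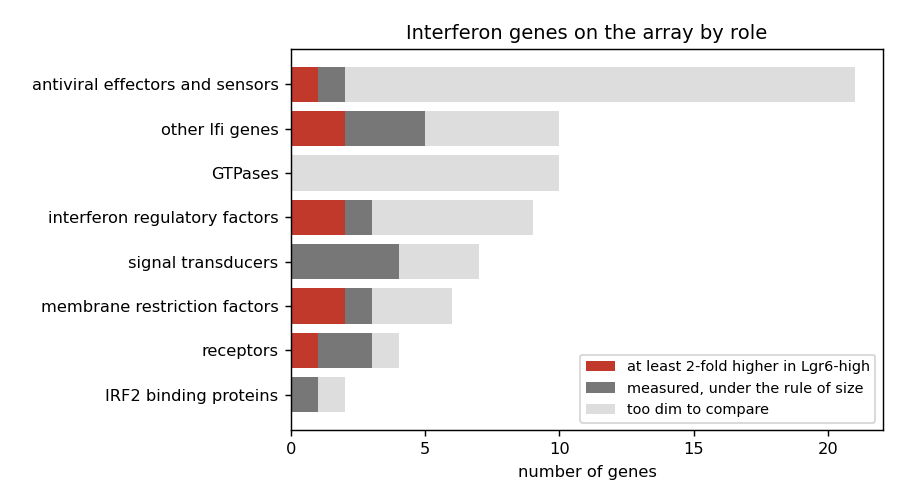
Number of interferon genes on the array in each role group (horizontal bars), divided into genes at least 2-fold higher in Lgr6-high cells (red), genes measured but under the rule of size (dark grey) and genes too dim to compare (light grey). Antiviral effectors and sensors are the largest group, with 21 genes of which 19 were too dim, and the Stat factors have 4 measured genes and none called.

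Promoter sequence was compared next, since the ISRE and GAS motifs define the classic targets. RefSeq promoter windows of build GRCm38.p6, from 250 bases before to 50 after the annotated start, matched 56 of the 69 genes by symbol. They were searched on both strands for the ISRE core GAAANNGAAA and for the GAS motif TTCNNNGAA, which reads the same on either strand. The ISRE core was present for 23 of the 56 genes (41.1%), beside 3.99% of all 27025 genes of the table, and GAS for 17 (30.4%), beside 9.55%. Of 40 genes not measured 21 held the ISRE core, of 10 measured but not called 1 did, and of 6 called genes 1 did. The counts for GAS were 13 of 40, 1 of 10 and 3 of 6. A match is a run of letters and not a shown binding site.

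The stretches below are shown because they carry the motifs of unmeasured antiviral genes, of the measured genes called higher in Lgr6-high cells, and of the Oas1 genes, whose members differ. Capitals mark every base in an ISRE core or GAS match, on either strand, and overlapping matches run together. Isg15 (chr4:156200864-156200903, minus strand) held 3 overlapping cores, Ifit1 (chr19:34640779-34640823, plus strand) held 2 on the opposite strand, and Igtp (chr11:58199501-58199540, plus strand) held a GAS followed by a core.
Isg15: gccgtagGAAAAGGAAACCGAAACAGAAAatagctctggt
Ifit1: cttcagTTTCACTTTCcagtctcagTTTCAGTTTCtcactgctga
Igtp: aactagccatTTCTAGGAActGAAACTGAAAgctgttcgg

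Among the called genes, Irf1 (chr11:53769909-53769948, plus strand) and Ifi202b (chr1:173982965-173983004, minus strand) each held a GAS upstream of the start, at -90 to -82 and -148 to -140. The window at a second annotated start of Irf1 had no match. Ifitm3 (chr7:141010714-141010743, minus strand) held 2 cores with a GAS that overlaps the second, all just after its annotated start.
Irf1: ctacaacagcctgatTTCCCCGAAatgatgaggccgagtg
Ifi202b: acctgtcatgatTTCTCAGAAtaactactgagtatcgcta
Ifitm3: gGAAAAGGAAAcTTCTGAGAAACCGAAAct

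The 60 bases before the start were nearly the same in Oas1a (chr5:120907526-120907585, minus strand) and Oas1g (chr5:120887614-120887673, minus strand), each with 2 overlapping cores, and both genes were at background throughout. Oas1f (chr5:120847307-120847366, plus strand), the called gene of this cluster, had no match to either motif in its whole window.
Oas1a: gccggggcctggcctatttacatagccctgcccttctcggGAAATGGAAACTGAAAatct
Oas1g: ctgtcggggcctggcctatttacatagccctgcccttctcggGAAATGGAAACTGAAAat
Oas1f: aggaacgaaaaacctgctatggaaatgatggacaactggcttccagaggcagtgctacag

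**Figure D4:**
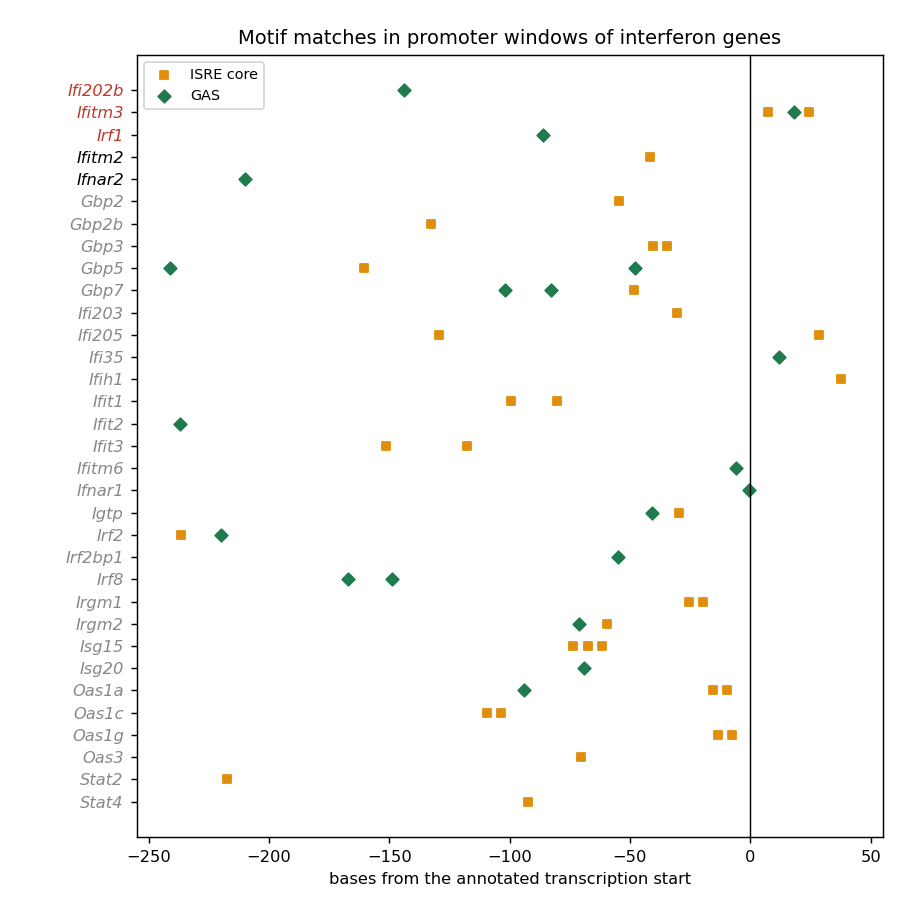
Position of each ISRE core match (orange squares) and GAS match (green diamonds) in bases from the annotated transcription start, for the interferon genes with a match; gene names are red where called higher in Lgr6-high cells, black where measured but not called and grey where not measured. Most genes with an ISRE core are grey, and Ifitm3 is the called gene with one.

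Of 3 measured receptor chains 1 was called. Ifngr1, the ligand-binding chain of the interferon gamma receptor, had a normalised log2 intensity of 9.45 and 10.23 in the Lgr6-high cells on arrays 1 and 2. In the Lgr5-high cells it had 6.92 and 6.91, and there it was above background on 1 of 2 arrays. Both Lgr6-high values lay above both Lgr5-high values. The ratio was 2.92 ± 0.56, from 2.53 and 3.31 on the arrays, and ranged from 1.67 to 5.17 over the 11 alternatives that measured it. Its partner Ifngr2, the signalling chain, was above background in both populations on both arrays and had a ratio of -0.04 ± 0.18, with opposite signs on the arrays. Ifnar2, a chain of the type I receptor, had 0.02 ± 0.08, from a signal near the dim end of the measured genes. The unequal values of Ifngr1 and Ifngr2 concern ratios, since levels of different probes cannot be compared.

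Of 4 measured Stat factors, which carry the signal from the receptors to the nucleus, none reached the rule. Stat6, which serves interleukin 4 and interleukin 13, had 0.49 ± 0.12, from a signal near the dim end of the measured genes. Its other probes, too dim to enter, gave 0.12 ± 0.29 and 0.03 ± 0.14. Stat3, which serves the interleukin 6 family, had 0.47 ± 0.29. Stat5a had 0.26 ± 0.25. Stat3 was above background in both populations on both arrays, with levels of 10.28 and 10.56 in Lgr6-high cells and 10.02 and 9.88 in Lgr5-high cells. Stat5a and Stat6 were above background in the Lgr5-high cells on 1 array each. With the scanner's own ratios Stat6 (2.02) and Stat5a (1.13) passed the rule, while Stat3 did not.

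Among the interferon regulatory factors Irf1 was called. Irf1, a transcription factor induced by interferon gamma and by NF-kappaB, was above background in both populations on each array. It had levels of 11.30 and 11.32 in Lgr6-high and 10.02 and 10.39 in Lgr5-high cells, and a ratio of 1.11 ± 0.25 (2.16-fold). On array 2 alone Irf1 measured 0.93 and fell short of 2-fold. A further Irf1 probe, too dim to enter, gave 0.19 ± 0.03. Irf3, which acts downstream of nucleic acid sensors and is present without interferon, had -0.23 ± 0.29. Irf2bp2, a corepressor that binds Irf2 and is itself no interferon regulatory factor, had 0.28 ± 0.49, with opposite signs on the arrays.

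**Figure D5:**
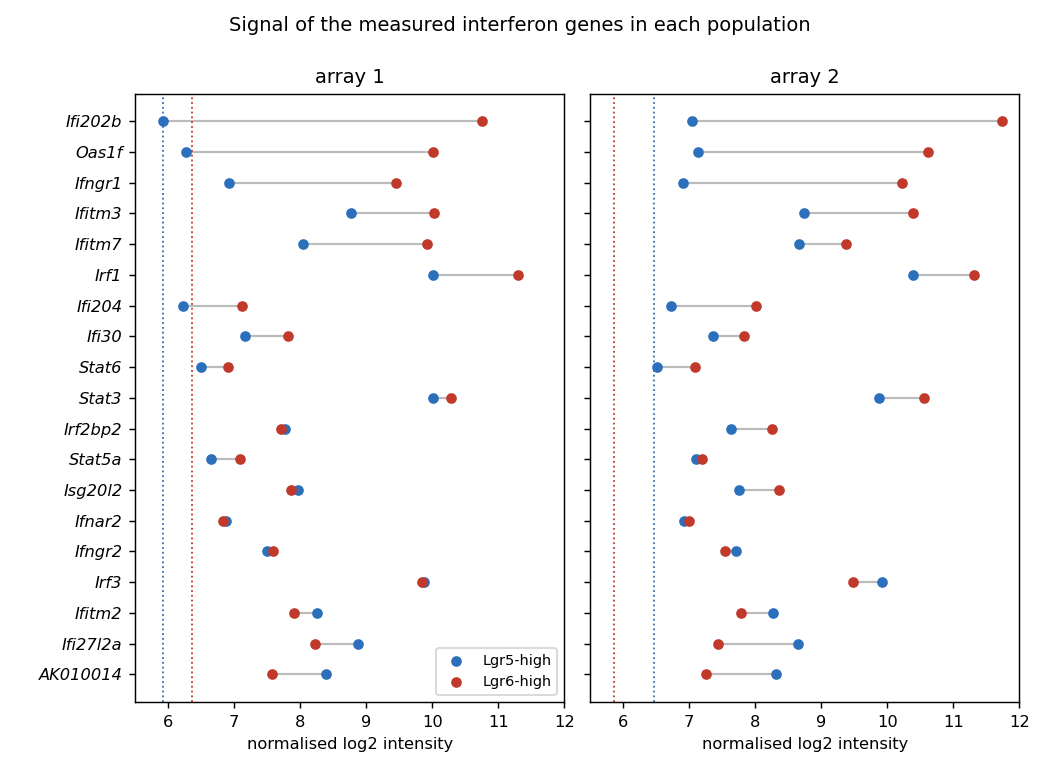
Normalised log2 intensity (horizontal axes) of 19 of the 21 measured interferon genes in Lgr5-high (blue) and Lgr6-high cells (red) on array 1 and array 2, with the 2 populations of a gene joined by a line; dotted lines give the lowest level among probes well above background in each population. The Lgr6-high point is the higher for Ifi202b, Oas1f and Ifngr1 on both arrays by at least 2.53 units. The points nearly coincide for Ifnar2, and the Lgr5-high line on array 1 is set by Ifi202b itself.

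The largest ratio belonged to Ifi202b, a member of the p200 family of DNA-binding proteins whose expression is known to vary among inbred mouse strains. Its levels were 10.75 and 11.74 in Lgr6-high cells and 5.92 and 7.05 in Lgr5-high cells, where it was above background on 1 of 2 arrays. The 5.92 on array 1 is itself the lowest level among probes well above background in Lgr5-high cells there. On array 2 its Lgr5-high signal was not above background. The ratio was 4.76 ± 0.09, and it ranged from 3.17 to 7.75 over the 11 alternatives that measured it. With the Lgr5-high side so near background, the size of this ratio is less certain than the SD shows. The probe lies within mm9 chr1:175892953-175893982. Ifi204, of the same family and the same stretch of chromosome 1, had levels of 7.12 and 8.01 in Lgr6-high cells and was at background in Lgr5-high cells in both hybridisations. Its ratio was 1.08 ± 0.28 (2.12-fold), with 0.89 on array 1 alone. It ranged from 0.527 to 3.72 over the 11 alternatives that measured Ifi204. A second Ifi204 probe, too dim to enter, gave 0.88 ± 0.55, with 0.49 on array 1. Another, at background throughout, gave 0.0037 ± 0.07. Ifi203 and Ifi205, also of this family, were at background in both populations. The p200 genes are close in sequence, so signal of one on another's probe was not tested.

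Oas1f, of the gene cluster that encodes oligoadenylate synthetases, enzymes that sense double-stranded RNA, had levels of 10.004 and 10.615 in Lgr6-high cells. In the Lgr5-high cells it had 6.28 and 7.14 and was above background on 1 array. Its ratio was 3.60 ± 0.18, with a range of 2.33 to 5.25 over the 11 alternatives that measured it, from a probe at mm9 chr5:121307929-121307988. No other Oas gene entered the comparison. Oas1c and Oas1e passed background on 1 array in each population, with ratios of -0.12 and -0.0019, and Oas1a, Oas1b, Oas1d, Oas1g and Oas1h were at background throughout. Isg20l2, a ribosome maturation nuclease related to Isg20, had 0.25 ± 0.51 with opposite signs on the arrays.

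Of 3 measured genes for Ifitm proteins, which block the entry of viruses at membranes, 2 were called. Ifitm3 had levels of 10.03 and 10.39 in Lgr6-high and 8.77 and 8.74 in Lgr5-high cells, with a ratio of 1.45 ± 0.28 (2.74-fold). Ifitm7 had 9.92 and 9.37 in Lgr6-high and 8.03 and 8.67 in Lgr5-high cells, and its ratio of 1.29 ± 0.84 (2.45-fold) came from 1.89 on array 1 and 0.70 on array 2. It was not called from array 2 alone. Ifitm2 leaned toward the Lgr5-high cells, with -0.42 ± 0.10 from its brighter probe and -0.25 ± 0.02 from a second one, short of the rule. The array places the second probe far from the first on mm9 chromosome 7, from 54087914 rather than 148140912. Ifitm1, Ifitm5 and Ifitm6 were too dim. The Ifitm genes are near-identical in places, so the values of single members are less certain.

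The Ifi27-like genes gave the lowest ratios of the group. Ifi27l2a, encoding a small mitochondrial or membrane protein induced by type I interferon, had levels of 8.23 and 7.43 in Lgr6-high cells and 8.87 and 8.65 in Lgr5-high cells. Its ratio was -0.93 ± 0.41, with -1.22 on array 2, and a second probe gave -0.71 ± 0.30. AK010014, a transcript that the array lists as Ifi27, had -0.93 ± 0.17, with -1.05 on array 2. From array 2 alone both were called higher in Lgr5-high cells, and with the scanner's ratios too, at -1.45 and -1.64. The gene now named Ifi27 is listed on the array as D12Ertd647e, outside the naming rule, and was looked up after these values were seen. It was called in the opposite direction, at 1.06 ± 0.24. The 3 probes lie together on mm9 chromosome 12, with Ifi27 at 104678353 to 104678412, Ifi27l2a at 104680394 to 104680453 and AK010014 at 104693928 to 104693987. Ifi30 had 0.57 ± 0.14 and was above background in both populations on both arrays.

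Other genes of the pathway were read from a list outside the naming rule. Of 131 such genes on the array 39 were measured. Of these, 7 were called toward Lgr6-high and 0 toward Lgr5-high cells, beside 7.28% and 4.76% of all genes, and their median was 0.49 beside -0.05. Among 15 ligand genes 1 was measured and not called. The receptor and kinase list had 5 of 8 measured and none called, and Jak1, the kinase shared by the interferon receptors, had 0.72 ± 0.91, from 0.07 and 1.36 on the arrays.

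Among 8 measured feedback genes 2 were called, the cytokine signalling suppressors Socs3 (1.45 ± 0.26) and Cish (1.41 ± 0.13). The phosphatases were not: Ptpn2, which acts on Jak1, had 0.93 ± 0.20, Ptpn1 -0.41 ± 0.05 and Ptpn11 0.43 ± 0.04. Of 8 measured sensor genes the adaptor Myd88 was called (1.16 ± 0.10). Sting1, the adaptor of cytosolic DNA sensing, had -0.95 ± 0.01 and fell just short of the rule on the Lgr5-high side; it was singled out after its values were seen.

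Of 17 measured effectors 4 were called, all toward Lgr6-high cells. They were the immunoproteasome subunits Psmb8 (1.81 ± 0.16, Lgr5-high above background on 1 array) and Psmb9 (1.37 ± 0.11), the adhesion molecule Icam1 (1.49 ± 0.32) and the death receptor Fas (1.29 ± 0.01). With the median of all passing probes in place of the brightest, Fas had 0.949 and lost the call, and Icam1 had 1.04. The proteasome activators Psme1 and Psme2 had 0.58 ± 0.07 and 0.97 ± 0.05, short of the rule. Of the other bright effectors, Shisa5 had 0.49 ± 0.28 and Daxx 0.47 ± 0.16.

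Some markers of other cells moved with the populations, and their part in these ratios was not tested. Of 9 keratinocyte markers all were measured, and 5 were called higher in Lgr6-high cells and 0 in Lgr5-high cells. The keratins Krt5, Krt14 and Krt15 had 1.82, 2.24 and 1.95 on array 1 but -0.15, -0.10 and -0.12 on array 2. They were not called, nor was Trp63 (0.43 ± 0.35). The mean log2 level of the 9 was 12.48 and 12.40 in Lgr6-high and 11.001 and 11.466 in Lgr5-high cells. Of 7 dermal fibroblast markers 5 were measured and 4 called higher in Lgr5-high cells, with mean levels of 6.70 and 5.91 in Lgr6-high and 8.14 and 7.59 in Lgr5-high cells. Of 9 endothelial and mural markers 4 were measured and 3 called higher in Lgr5-high cells. The remaining measured marker, Acta2, leaned the other way at 0.90 ± 0.42 and was not called. Of 12 leukocyte markers none was measured, though Cd3e and Fcer1g passed background in Lgr5-high cells on 1 array. Ptprc, the pan-leukocyte antigen, was at background, and the mean levels were 6.27 and 6.13 in Lgr6-high and 6.17 and 6.12 in Lgr5-high cells, close to the lowest level called above background. All 4 markers of dendritic epidermal T cells on the array were at background, among them Cd7 and Gzmb. Of 13 Langerhans cell and macrophage markers 1 was measured and none called. Cd207, which defines Langerhans cells, was at background, while Cd74 passed background on 1 array in each population and H2-Ab1 on 1 array in Lgr5-high cells.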

How the data were processed

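Gene expression was measured on 2 two-colour Agilent arrays. The authors deposited spot intensity values and local backgrounds on a linear scale, extracted per the file headers with Agilent Feature Extraction 10.5.1.1 (9.5.3 per the submitters' processing notes). The same deposited files hold the software's log10 ratio of Cy5 over Cy3, and the authors' value table holds that log10 ratio, with the sign turned on array 2, so its direction is Lgr6-high over Lgr5-high and both column medians are 0. Probe positions are on mm9.

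With limma 3.58.1 in R 4.3.3, background was corrected by normexp (offset 50, fitted on spots without an outlier mark), and each array's log ratios were then normalised by loess, control spots having weight 0. Spots marked as outliers (139 and 204) were left out, spots of a probe averaged, and signs turned by the dyes. A probe with replicate spots counted as above background when more than 0.5 of them were. The brightest passing probe stood for a gene. Levels are loess ratios recombined with intensities scaled between arrays (Aquantile). The 2.12-fold of Ifi204 compares its Lgr6-high levels with its dim Lgr5-high levels. These exceeded the lowest level well above background on each array, but the probe was at background in Lgr5-high cells on both. The size of the fold is therefore uncertain and may be larger. Probes were named by RefSeq accession (85 of 102), otherwise through their symbol. The arrays were treated as 1 replicate in both dye orientations, so a rule of size stands in for a test. All measured interferon genes are named, except 2 that are not reported here, and of the pathway list the called genes and the 8 brightest others. The members and lists were chosen with earlier results of these data known. The pipeline was tested on simulated data. Alternatives are in the closing section.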

Additional observations from a re-analysis of the deposited data

How the results depend on the processing

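Ifi202b, Oas1f and Ifngr1 passed the rule in all 11 alternatives that measured them. Their ratios were 3.17 to 7.75, 2.33 to 5.25 and 1.67 to 5.17. The stricter filter, which needs a clear signal from both populations, left these genes out, since their Lgr5-high signal passed on 1 array only. Nor are the 11 independent checks. Dropping the filter, the median over passing probes, limma and the 1.5-fold rule kept the reported ratios of these genes. The authors' value table repeats the scanner's ratios. Ifitm3 lost the call in 2 of 12, Ifitm7 and Irf1 in 4 of 12 each and Ifi204 in 4 of 11, and no named gene that was called changed direction. The causes were not tested, except that fewer genes enter a stricter filter. Interferon genes called higher in Lgr6-high cells (8) numbered 5 without background subtraction (3.42% of all genes), 4 with normexp fitted on all spots (2.0%), 3 with median centring (2.16%), 4 with both populations above background (7.64%) and 10 with the scanner's ratios (15.5%). Their median (0.47) was 0.30 without background subtraction, 0.22 with normexp fitted on all spots and 0.54 with median centring. It was 0.28 with both populations above background and 0.0894 with no filter on dim probes. With the scanner's ratios, to which the authors' value table is equal, the median was 1.0. Toward Lgr5-high cells (0 as reported, and 0 by limma) the scanner's ratios and the 1.5-fold rule each called 2 interferon genes of 21, beside 15.5% and 14.2% of all genes. Pathway list genes higher in Lgr6-high cells (7) numbered 4 without background subtraction, 0 with normexp fitted on all spots and 1 with median centring. They numbered 17 with the scanner's ratios and 16 with the 1.5-fold rule, which called 15.2% of all genes that way. Toward Lgr5-high cells the last 2 settings called 2 and 1. Leaving out an array gave 6 without array 1 and 7 without array 2 for interferon genes higher in Lgr6-high (9.86% and 7.0% of all genes), 2 and 0 for Lgr5-high (7.62% and 5.08%), medians of 0.41 to 0.63, and 9 to 12 pathway genes higher in Lgr6-high cells. Slide as a block could not be fitted, since both arrays are on 1 slide. No further paired analysis was run, since each array holds both populations and its ratio already compares them within the array. Signal over background limits the comparison to 30.4% of the interferon genes, beside 22.3% of all genes.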
